A study of Mus musculus with 13 samples.

Results

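The glucocorticoid receptor targets followed here were Tsc22d3, Fkbp5, Per1, Klf9, Zbtb16, Sgk1, Ddit4, Errfi1, Dusp1 and Sult1a1, 10 of the 12205 genes tested on 13 Affymetrix mouse arrays. They were listed as known or likely receptor targets when earlier results of these arrays were known, among them high Tsc22d3 values in the medium control and in co-culture. The probe set of each gene was selected on its level: among those with a single symbol, the one with the highest average over the 13 arrays. All 10 passed the filter on low values. The arrays hold RNA of UG26-1B6, a single stromal cell clone of embryonic mouse urogenital ridge, kept in medium with 15% fetal calf serum, 5% horse serum and 30% conditioned medium. Co-culture groups were stroma grown to confluence, irradiated at 30 Gy and seeded with LSK cells, which lack lineage markers, carry Sca-1 and c-Kit and are rich in blood stem and progenitor cells. They were kept for 1, 2 or 3 days (n = 3, 3 and 2 arrays). The medium control was the same clone 24 h after a change of medium, without LSK cells (n = 2), and day 0 was the clone before co-culture, collected with trypsin (n = 3). The sources used here do not say if medium control and day 0 cells were irradiated, or if the medium or its sera held a glucocorticoid, and no hormone was measured. Replicates are biological by their titles but technical by the design text, so the p-values reflect only how far these arrays differ, which may be technical.

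The glucocorticoid receptor, encoded by Nr3c1, is a nuclear receptor held in the cytoplasm by Hsp90 and co-chaperones until it binds cortisol, corticosterone or a synthetic steroid. The bound receptor enters the nucleus, where it induces genes through palindromic response elements and lowers many inflammatory genes by acting on other transcription factors. Stromal cells and fibroblasts are known to respond to glucocorticoids with Tsc22d3, Fkbp5, Per1 and Zbtb16 among the induced genes, and several of the targets feed back on the receptor or on inflammatory signalling.

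RefSeq promoter windows (GRCm38.p6, 250 bases before to 50 bases after a transcript start) were at hand for 9 of the 10 genes, 18 windows in all, with none for Zbtb16. They were searched on both strands for the receptor hexamer AGAACA, which reads TGTTCT on the other strand, the palindromic core of the receptor element, in which a pair of such hexamers face each other across 3 bases, the E-box CACGTG that clock proteins bind, the cyclic AMP response element TGACGTCA and the CArG box of serum response factor. Matches of different motifs may overlap. The hexamer lay in 5 of the 18 windows (27.8%), against 19% of all 32851 windows. Of these, 3 were of Sgk1, which has 6 of the 18 windows, and 1 each of Tsc22d3 and Sult1a1. The core lay in 1 window, of Sgk1, against 0.475% of all windows. The E-box lay in 4 windows, 1 each of Fkbp5, Per1, Sgk1 and Dusp1 (22.2%), against 7.15% of all windows. The cyclic AMP element lay in 2, of Errfi1 and Dusp1 (11.1%), against 1.79% of all windows, and the CArG box lay in 0, against 1.63%. A set of 5 windows is shown, 5′ to 3′ on the gene's strand with every motif match in capitals: the Sgk1 window with the palindrome, the Tsc22d3 and Sult1a1 windows with hexamers, and the Fkbp5 and Dusp1 windows, which hold no hexamer.
Sgk1, chr10:21993640-21993939, plus strand: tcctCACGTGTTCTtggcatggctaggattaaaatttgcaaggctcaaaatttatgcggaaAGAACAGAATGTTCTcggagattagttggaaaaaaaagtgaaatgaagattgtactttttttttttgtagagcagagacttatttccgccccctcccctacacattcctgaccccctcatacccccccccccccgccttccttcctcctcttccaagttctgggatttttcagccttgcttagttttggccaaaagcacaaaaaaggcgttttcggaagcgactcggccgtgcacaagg
Tsc22d3, chrX:140600473-140600772, minus strand: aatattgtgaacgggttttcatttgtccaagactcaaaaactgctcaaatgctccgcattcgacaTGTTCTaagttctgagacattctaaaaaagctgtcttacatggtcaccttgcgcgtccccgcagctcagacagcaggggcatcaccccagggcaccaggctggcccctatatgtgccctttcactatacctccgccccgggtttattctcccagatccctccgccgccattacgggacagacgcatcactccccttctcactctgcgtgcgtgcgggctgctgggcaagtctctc
Sult1a1, chr7:126676369-126676668, minus strand: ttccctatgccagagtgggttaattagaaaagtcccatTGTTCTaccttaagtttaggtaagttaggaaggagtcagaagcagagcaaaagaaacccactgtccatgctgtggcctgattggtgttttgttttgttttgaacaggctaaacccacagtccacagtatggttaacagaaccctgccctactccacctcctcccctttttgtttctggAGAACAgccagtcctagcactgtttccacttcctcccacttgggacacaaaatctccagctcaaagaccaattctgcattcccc
Fkbp5, chr17:28486100-28486399, minus strand: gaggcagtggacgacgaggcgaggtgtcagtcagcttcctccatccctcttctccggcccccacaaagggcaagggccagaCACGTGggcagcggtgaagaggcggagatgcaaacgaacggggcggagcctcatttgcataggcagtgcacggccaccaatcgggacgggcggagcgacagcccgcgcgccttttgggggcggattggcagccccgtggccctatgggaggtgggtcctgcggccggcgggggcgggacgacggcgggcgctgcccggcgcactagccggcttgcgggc
Dusp1, chr17:26508423-26508722, minus strand: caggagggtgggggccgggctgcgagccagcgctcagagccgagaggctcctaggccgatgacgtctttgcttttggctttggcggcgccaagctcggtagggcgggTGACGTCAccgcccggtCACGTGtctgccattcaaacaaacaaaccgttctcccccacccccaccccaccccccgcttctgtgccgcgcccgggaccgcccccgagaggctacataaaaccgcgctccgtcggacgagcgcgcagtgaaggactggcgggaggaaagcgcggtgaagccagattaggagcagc
In the Sgk1 window the palindromic core reads gaacagaatgttc and starts at position -188 from the transcript start. The first capitals of that window are an E-box that overlaps a hexamer. In the Dusp1 window the first capitals are the cyclic AMP element and the next are the E-box. A match is only a description of the letters, and no binding was measured.

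Day 2 replicate 1 of co-culture stood apart from the other arrays. Its highest correlation with another array was 0.785, across genes, which are not independent, and the 3′ signal of Gapdh exceeded the 5′ signal by 8.96, against 2.15 to 5.79 on the other 12 arrays. On it, 6 of 10 measured stroma markers lay above 5 on the log2 scale and 17 of 18 measured haematopoietic markers did. The other 12 arrays had all 10 stroma markers above 5, including Col1a1, Fn1 and Vim. Haematopoietic markers averaged 3.43 to 4.13 on day 1 of co-culture, 4.71 to 9.94 on day 2 and 5.75 to 6.63 on day 3, against 2.67 to 2.72 in the medium control and 2.70 to 2.77 at day 0. Ptprc, Elane, Gfi1, Ikzf1, Vwf and Irf8 lay at the lowest value on all 5 arrays without LSK cells. Of 5 endothelial markers Kdr alone was among the tested genes, and it measured 8.59 to 9.19 on day 1, 2.56 to 10.16 on day 2 and 6.23 to 7.48 on day 3, against 10.40 and 10.42 in the medium control and 5.89 to 6.66 at day 0. The 3 tested of 5 epithelial markers averaged 2.59 to 3.98 on co-culture arrays, against 2.84 to 3.05 in the medium control and 3.33 to 3.57 at day 0. Poly-A spike RNAs averaged 6.78 to 12.82 on the co-culture arrays, against 3.31 to 3.46 in the medium control and 3.64 to 6.01 at day 0. Kdr, like Tsc22d3, lay above day 0 on every medium control and day 1 array. The part of these markers and of the spike signal in the values below was not tested, and values are given with and without day 2 replicate 1.

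In 8 of the 10 targets every array of day 1 of co-culture lay above every day 0 array, as it did in 17.7% of all tested genes. Both medium control arrays, without any LSK cells, did so in 7 of 10, against 20.6% of all tested genes. In the medium control the differences from day 0 were larger in Zbtb16, Tsc22d3, Fkbp5 and Sult1a1 than in the other targets. On day 1 of co-culture Tsc22d3, Fkbp5, Zbtb16 and Klf9 had the larger ones, and the lower bound of 1.97 for Sult1a1 lay below the values of Klf9 and Errfi1. Sgk1 differed by about 2-fold, while Ddit4 and Dusp1 were not higher in the medium control. All values are log2 expression values, all differences are of log2 group means, and in such bulk samples more RNA per cell and more cells of a type cannot be told apart. The plot of values by array shows the 10 genes in the 5 groups.

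**Figure D1:**
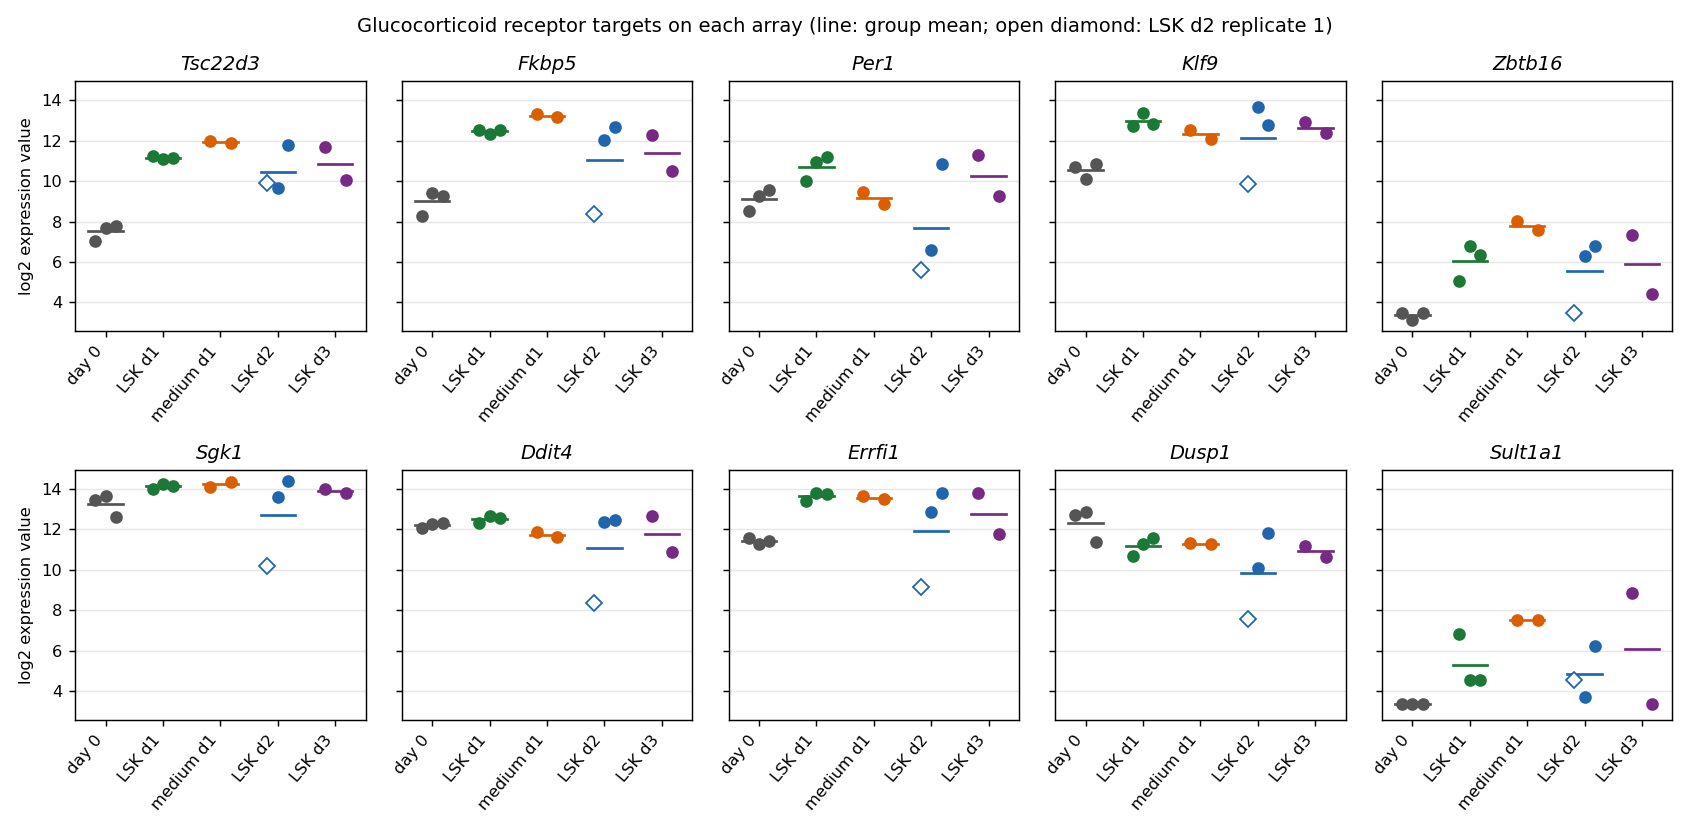
Log2 expression value (y axis) of each of the 10 targets on every array, in the 5 groups along the x axis: day 0, LSK d1 (day 1 of co-culture), medium d1 (medium control), LSK d2 and LSK d3. Points are arrays, lines are group means and the open diamond is day 2 replicate 1. Tsc22d3 lay at 11.87 and 11.97 in the medium control, against 7.06 to 7.80 at day 0, while Dusp1 overlapped or lay below day 0.

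Among the feedback and anti-inflammatory genes, Tsc22d3 encodes GILZ, a leucine zipper protein that restrains NF-kB and AP-1. On co-culture arrays it measured 11.26, 11.09 and 11.15 on day 1, 9.89, 9.67 and 11.81 on day 2 and 11.68 and 10.04 on day 3. In the medium control it measured 11.97 and 11.87, against 7.06, 7.68 and 7.80 at day 0. All 10 later arrays lay above all 3 day 0 arrays, and the medium control lay above every co-culture array. The order of group means was medium control, day 1, day 3, day 2 and day 0, and days 1, 2 and 3 of co-culture overlapped. Tsc22d3 was already known to be high in these groups when the list was drawn up, so its differences are a description. It differed from day 0 by 4.41 ± 0.64 (SE) in the medium control, a 21.3-fold difference (limma, adjusted p = 0.0289), by 3.66 ± 0.57 on day 1 (limma, adjusted p = 0.0195), by 2.95 on day 2 (limma, adjusted p = 0.0389) and by 3.35 on day 3 (limma, adjusted p = 0.0525). With single arrays left out the medium difference lay between 4.18 and 4.56, with limma adjusted p between 0.00819 and 0.311. That call was lost without day 0 replicate 2 or 3, either medium array or any of the 3 day 1 co-culture arrays. The day 1 difference lay between 3.43 and 3.80 (limma adjusted p between 0.00394 and 0.0996), and its call was lost without day 0 replicate 1 or 2 or any day 1 co-culture array. The day 2 difference lay between 2.27 and 3.34 (limma adjusted p between 0.00656 and 0.126), and its call was lost without day 2 replicate 2 or any single array of day 0, the medium control or day 1 of co-culture. It was also lost with no filter on low values or with day 2 and day 0 fitted alone (limma, adjusted p = 0.0759 and 0.375).

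Fkbp5 encodes an Hsp90 co-chaperone that lowers the receptor's affinity for hormone, a feedback on the receptor itself. With LSK cells it measured 12.54, 12.31 and 12.55 on day 1, 8.38, 12.03 and 12.68 on day 2 and 12.27 and 10.52 on day 3. The medium arrays gave 13.31 and 13.15, against 8.29, 9.43 and 9.27 at day 0. The medium control was the highest group and day 2 replicate 1 the single later array within the day 0 range. The difference from day 0 was 4.23 ± 1.08 in the medium control (18.8-fold, limma, adjusted p = 0.19) and 3.47 ± 0.97 on day 1 (limma, adjusted p = 0.101), so neither passed with all 13 arrays. Without day 2 replicate 1, which is in neither comparison but adds to the shared spread, the same differences had SE of 0.51 and 0.46 and passed (limma, adjusted p = 0.0111 and 0.00498). On days 2 and 3 the differences were 2.04 and 2.40 with all arrays, and 3.36 and 2.40 without day 2 replicate 1, where both passed (limma, adjusted p = 0.0222 and 0.0293).

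Dusp1 encodes MKP-1, a phosphatase that switches off p38 and JNK and is also an immediate early gene. Its values in co-culture were 10.68, 11.28 and 11.59 on day 1, 7.57, 10.11 and 11.82 on day 2 and 11.20 and 10.64 on day 3. Without LSK cells it measured 11.32 and 11.27 in the medium control, against 12.70, 12.85 and 11.39 at day 0. Day 0 replicates 1 and 2 were the highest of the 13 arrays and replicate 3 was lower, and the medium control lay just below the day 0 range. The differences from day 0 were -1.02 ± 0.99 in the medium control, -1.13 ± 0.89 on day 1, -2.48 ± 0.89 on day 2 and -1.39 ± 0.99 on day 3, and none passed (limma, adjusted p of 0.131 or more). Without day 2 replicate 3 the day 2 difference was -3.47 (limma, adjusted p = 0.00936). In the 4 comparisons with day 0 the difference was negative under all alternative settings, while in Tsc22d3, Fkbp5, Klf9 and Zbtb16 it was positive under all of them. These settings refit the same arrays and share those of day 0, so their agreement is not independent support for a sign.

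Among the transcriptional regulators, Klf9 encodes a Krüppel-like factor that is a direct receptor target in many cell types. Co-culture arrays gave 12.71, 13.36 and 12.81 on day 1, 9.88, 13.68 and 12.80 on day 2 and 12.92 and 12.36 on day 3. Medium control values were 12.52 and 12.10, against 10.72, 10.10 and 10.86 at day 0. In the probe set used, every later array but day 2 replicate 1 lay above day 0. Day 1 of co-culture lay above the medium control in that probe set, but not in some others of Klf9 given below. The difference from day 0 was 2.40 ± 0.79 on day 1 of co-culture (limma, adjusted p = 0.155) and 1.75 ± 0.89 in the medium control (limma, adjusted p = 0.617). With day 2 replicate 1 left out the day 1, 2 and 3 differences of 2.40, 2.68 and 2.08 passed (limma, adjusted p = 0.00545, 0.0146 and 0.0151), and the medium difference missed the threshold (limma, adjusted p = 0.0591).

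Zbtb16 encodes PLZF, a zinc finger repressor that glucocorticoids induce in human stromal cells such as those of the endometrium. On co-culture arrays it measured 5.08, 6.79 and 6.34 on day 1, 3.49, 6.31 and 6.81 on day 2 and 7.34 and 4.43 on day 3. In the medium control it measured 8.02 and 7.58, against 3.50, 3.14 and 3.49 at day 0. In the probe set used, the medium control was the highest group, above all co-culture arrays, and the spread among co-culture arrays was wide. Relative to day 0 the difference was 4.43 ± 1.06 in the medium control (21.5-fold, limma, adjusted p = 0.166) and 2.70 ± 0.94 on day 1 (limma, adjusted p = 0.175). When day 2 replicate 1 was left out both passed (limma, adjusted p = 0.0383 and 0.0448).

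Per1 encodes a repressor of the circadian clock whose promoter responds to glucocorticoids and to cyclic AMP. With LSK cells it measured 10.02, 10.96 and 11.18 on day 1, 5.59, 6.60 and 10.84 on day 2 and 11.27 and 9.26 on day 3. The medium arrays gave 9.47 and 8.86, against 8.50, 9.28 and 9.54 at day 0. The medium control lay within the day 0 range, while all 3 day 1 co-culture arrays lay above both groups. The difference from day 0 was 0.06 ± 1.30 in the medium control (95% confidence interval -2.87 to 2.98) and 1.61 ± 1.17 on day 1 (limma, adjusted p = 0.574). On day 2 replicates 1 and 2 were the lowest of all arrays. Without day 2 replicate 3 the day 2 difference was -3.01 and passed (limma, adjusted p = 0.0106), against -1.43 with all arrays and -0.38 without replicate 1.

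Among the signalling regulators, Errfi1 encodes Mig-6, an inhibitor of the EGF receptor. Its values in co-culture were 13.42, 13.80 and 13.77 on day 1, 9.14, 12.86 and 13.80 on day 2 and 13.80 and 11.76 on day 3. Without LSK cells it measured 13.63 and 13.50 in the medium control, against 11.58, 11.28 and 11.44 at day 0. In the probe set used, day 1 of co-culture and the medium control overlapped and lay clear of day 0. Relative to day 0 the difference was 2.22 ± 1.01 on day 1 (limma, adjusted p = 0.302) and 2.13 ± 1.13 in the medium control (limma, adjusted p = 0.65). Without day 2 replicate 1 the day 1 difference passed (limma, adjusted p = 0.0235) and the medium difference did not (limma, adjusted p = 0.094).

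Sgk1 encodes a serine/threonine kinase that controls ion transport and is induced by both corticosteroid receptors and by serum. Co-culture arrays gave 14.01, 14.23 and 14.17 on day 1, 10.18, 13.59 and 14.39 on day 2 and 14.01 and 13.82 on day 3. Medium control values were 14.12 and 14.36, against 13.46, 13.67 and 12.59 at day 0. Day 1 of co-culture and the medium control lay above day 0 by a small margin, and day 2 replicate 1 lay below every other array. The difference from day 0 was 1.00 ± 0.98 in the medium control and 0.90 ± 0.88 on day 1, and neither passed (limma, adjusted p = 0.947 and 0.734, and 0.186 and 0.0955 without day 2 replicate 1).

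Ddit4 encodes REDD1, an inhibitor of the mTORC1 growth pathway that stress and hypoxia also induce. On co-culture arrays it measured 12.32, 12.65 and 12.58 on day 1, 8.38, 12.35 and 12.47 on day 2 and 12.68 and 10.89 on day 3. In the medium control it measured 11.85 and 11.60, against 12.07, 12.28 and 12.33 at day 0. The medium control lay below day 0 and day 1 of co-culture overlapped with day 0. Relative to day 0 the difference was -0.50 ± 1.06 in the medium control (95% confidence interval -2.88 to 1.88) and 0.29 ± 0.95 on day 1 (95% confidence interval -1.84 to 2.42).

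Sult1a1 encodes a phenol sulfotransferase, an enzyme that glucocorticoids are known to induce in rat liver. With LSK cells it measured 6.81, 4.55 and 4.55 on day 1, 4.55, 3.73 and 6.24 on day 2 and 8.84 and 3.34 on day 3. The medium arrays gave 7.53 and 7.54, against 3.34 on each of the 3 day 0 arrays, which is the lowest value of this probe set. The medium control was high on both arrays, whereas the co-culture arrays of a day differed widely. Differences from day 0 are lower bounds for this reason: at least 4.20 ± 1.39 in the medium control (limma, adjusted p = 0.34) and at least 1.97 ± 1.25 on day 1 (limma, adjusted p = 0.496), neither past the threshold with or without day 2 replicate 1.

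Read across the list, the medium control against day 0 had 1 of 10 targets past the threshold, Tsc22d3, higher, and 0 lower, where 0.221% of all tested genes were called higher and 0.107% lower (limma, adjusted p under 0.05). At an unadjusted p under 0.05 there were 4 of 10, where 9.45% of all genes passed. With day 2 replicate 1 left out, 3 were called higher (Tsc22d3, Fkbp5 and Zbtb16), where 0.778% of all genes were, and 0 lower (0.582%). In 7 targets all medium arrays lay above all day 0 arrays (20.6% of all genes did so) and in 2, Ddit4 and Dusp1, all lay below (22.7% of all genes). The median difference was 1.94 over the 10 targets and 0 over all tested genes. Since the list was chosen with results known, these counts describe it and do not test it.

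For day 1 of co-culture against day 0 the count was again 1 higher and 0 lower, where 0.828% of all genes were called higher and 1.33% lower. At an unadjusted p under 0.05 there were 4 of 10, where 17.3% of all genes passed. When day 2 replicate 1 was left out it was 5 higher (Tsc22d3, Fkbp5, Klf9, Zbtb16 and Errfi1), where 4.35% of all genes were, and 0 lower (6.22%). All day 1 arrays lay above all day 0 arrays in 8 targets, where 17.7% of all genes did, and below in 0 (21.3%), and the median difference was 2.09 against 0 over all genes. On day 2 the count was 1 higher and 0 lower with all arrays (0.639% of all genes higher, 1.62% lower). At an unadjusted p under 0.05 there were 3 of 10, near the share of all genes (26.3%). These were Tsc22d3 and Zbtb16, higher, and Dusp1, lower. The day 2 limma count was 3 higher without replicate 1 (Tsc22d3, Fkbp5 and Klf9), where 0.926% of all genes were, and 0 lower (1.56%). Groups did not overlap in 2 targets, both higher (6.46% of all genes higher, 16.2% lower), and in 7, all higher, without replicate 1 (11.1% higher, 19.7% lower). On day 3 the limma count was 0 higher and 0 lower (0.352% and 0.467% of all genes), with 3 at an unadjusted p under 0.05 (13.8% of all genes), and 3 higher without day 2 replicate 1 (Tsc22d3, Fkbp5 and Klf9), where 3.16% of all genes were, and 0 lower (4.53%). Day 3 lay wholly above day 0 in 6 targets (15% of all genes) and wholly below in 1, Dusp1 (20.5%). The comparisons with day 0 share the day 0 arrays, so their values are set side by side without a count of agreement. The plot of differences shows that, without day 2 replicate 1, the differences of day 1 and the medium control from day 0 stay in place. The errors of Fkbp5, Per1, Klf9, Zbtb16, Sgk1, Ddit4, Errfi1 and Dusp1 are smaller. That of Tsc22d3 hardly moves and that of Sult1a1 is larger.

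**Figure D2:**
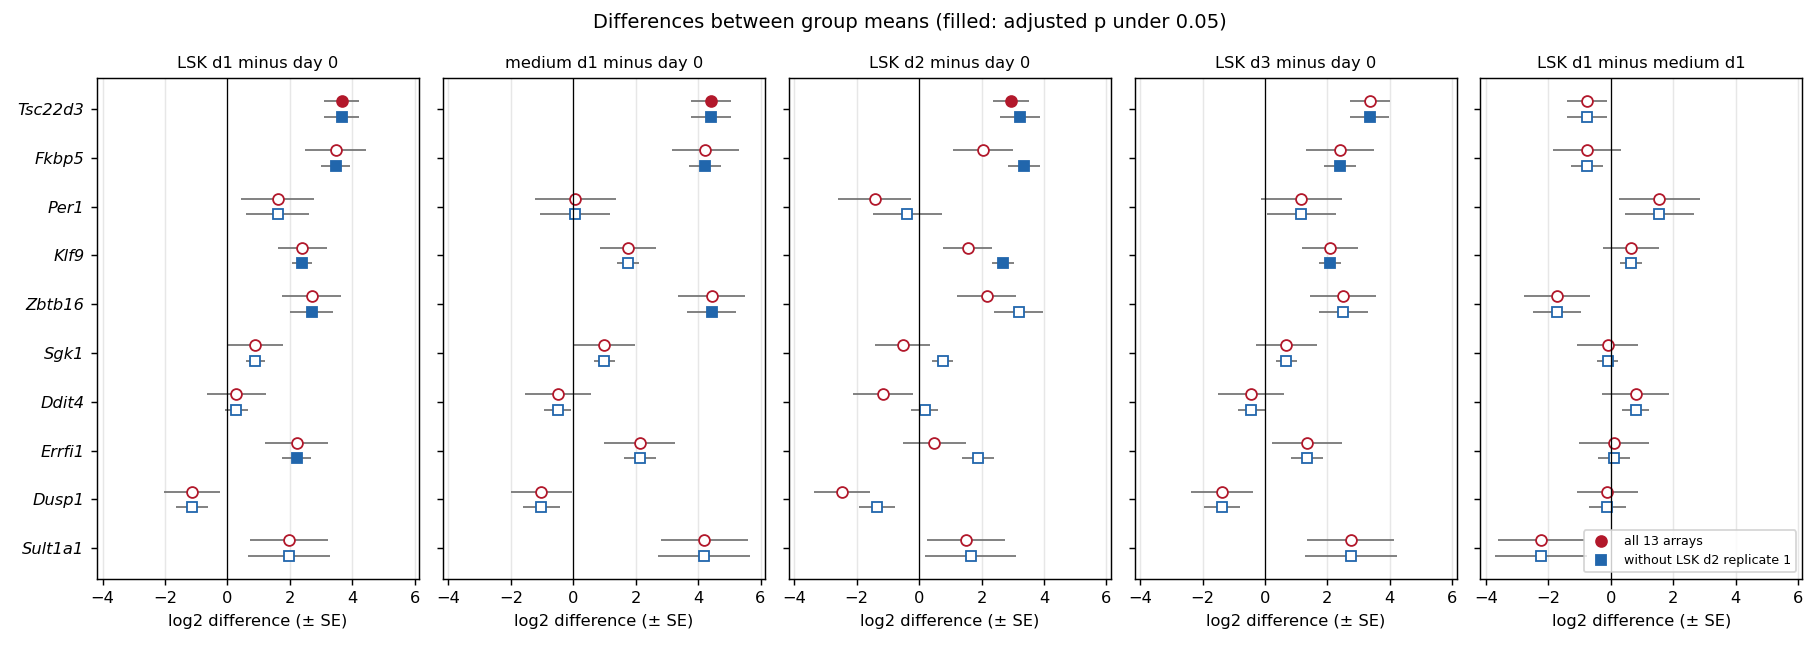
Log2 difference of group means (x axis, ± SE) for the 10 targets (rows), from the limma fit to all 13 arrays (circles) and to 12 arrays without day 2 replicate 1 (squares), in 5 comparisons. Filled symbols have an adjusted p under 0.05, and Tsc22d3 at 4.41 in the medium control is filled in both fits, while Zbtb16 at 4.43 is filled in the fit to 12 arrays.

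Day 1 of co-culture and the medium control share the 24 h interval and differ in LSK cells, and whether they differ in irradiation as well is not stated. None of the 10 targets passed between them with limma, with all arrays or without day 2 replicate 1, where 2.15% of all genes were called higher and 3.05% lower with all arrays, and 7.61% and 9.62% without that array. With all arrays 0 of the 10 had an unadjusted p under 0.05, against 20.9% of all genes. In the probe sets used, Tsc22d3, Fkbp5, Zbtb16 and Sult1a1 were lower on every day 1 co-culture array than on either medium array. The same held for 31.8% of all genes. Per1, Klf9 and Ddit4 were higher in the probe sets used (30.7% of all genes). The difference of day 1 co-culture from the medium control was -0.76 in Tsc22d3 (95% confidence interval -2.20 to 0.69), -0.76 in Fkbp5 (-3.19 to 1.67) and -1.73 in Zbtb16 (-4.10 to 0.64). It was 1.55 in Per1 (-1.37 to 4.48), 0.10 in Errfi1 (-2.45 to 2.64) and -0.10 in Sgk1 (-2.31 to 2.10). These intervals leave room for differences of more than 2-fold in each of these 6 genes, so equal levels are not shown. A fit to these 2 groups alone called Tsc22d3 and Fkbp5 lower and Ddit4 higher, where it called 19.6% of all genes lower and 17.9% higher, so the share of targets was near that of all genes. Day 3 against day 1 of co-culture gave 0 calls with limma (0% of all genes called higher and 0.00819% lower, and 0.197% and 0.0246% without day 2 replicate 1) and 0 at an unadjusted p under 0.05 (2.93% of all genes). The day 3 arrays lay wholly below day 1 in 2 targets, Fkbp5 and Sgk1 (11.5% of all genes), and wholly above in 0 (8.28%). For Sgk1 the groups nearly touched, with the nearest arrays at 14.0111 on day 3 and 14.0135 on day 1. The day 3 arrays differed from each other in Tsc22d3 (11.68 and 10.04) and Zbtb16 (7.34 and 4.43).

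Other probe sets of a gene did not always follow the one used. For Tsc22d3, the probe set used (1420772_a_at) and 1425281_a_at differed from day 0 in the medium control by 4.41 and 4.95, while 1425557_x_at differed by 0.60. For Fkbp5, 1448231_at had the reverse order of the groups. It differed by at least 2.36 on day 1 of co-culture and by at least 1.15 in the medium control. These are lower bounds, since 2 of the 3 day 0 arrays lay at its lowest value. The probe set used gave 3.47 and 4.23. For Klf9, with 6 probe sets past the filter, the medium difference lay between 1.75 and 2.57 in 5 of them and was 0.06 in 1452723_at. On day 1 of co-culture Klf9 differed by 2.40 in the probe set used, by 2.31 in 1428289_at, by 0.98 in 1428288_at and by 0.02 in 1422264_s_at. Day 1 minus the medium control was 0.65 in the probe set used and 0.16 in 1452723_at. The sign was reversed in 1428289_at (-0.25), 1428288_at (-0.86), 1436763_a_at (-1.61) and 1422264_s_at (-1.89). Zbtb16 differed by 4.43 in the medium control in the probe set used, by at least 2.66 in 1419874_x_at and by at least 0.26 in 1427638_at, since both of these lay at their lowest value on all 3 day 0 arrays. In 1419874_x_at the medium arrays gave 4.93 and 4.94, within the co-culture range of 4.66 to 5.91. In its other probe set, 1419816_s_at, Errfi1 differed from day 0 by 2.47 in the medium control and by 1.10 on day 1 of co-culture. The day 1 arrays there gave 5.42, 6.70 and 6.91, and overlapped with day 0 at 4.11, 5.72 and 5.89. They lay below the medium control at 7.96 and 7.46. Per1, Sgk1, Ddit4, Dusp1 and Sult1a1 had a single probe set.

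**Figure D3:**
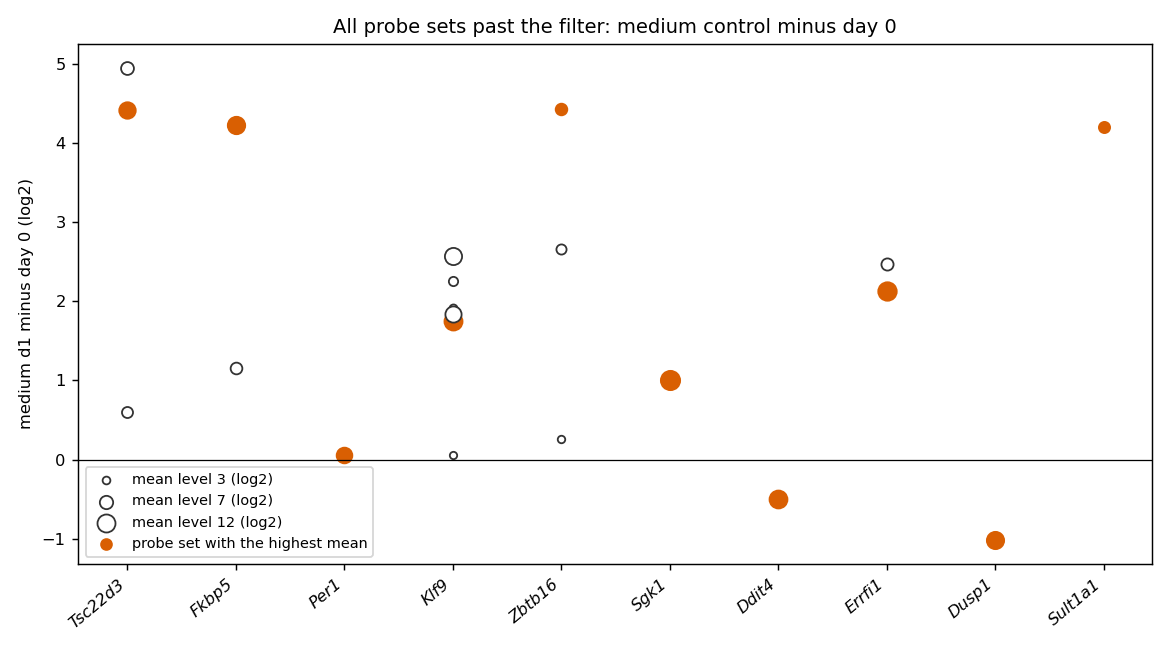
Log2 difference of the medium control from day 0 (y axis) for every probe set of the 10 targets (x axis) past the filter. Circle area grows with the mean log2 value over the 13 arrays and filled circles are the probe sets used, which for Tsc22d3 and Zbtb16 lie at 4.41 and 4.43, with other probe sets of these genes at 0.60 and 0.26.

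The genes with the most similar pattern to Tsc22d3 over the 13 arrays, by Pearson correlation of log2 values among all tested genes, were Fkbp5 (0.873), Fabp4 (0.871), the metallothionein gene Mt2 (0.862), Zbtb16 (0.860) and H6pd (0.857). The arrays share 5 groups and day 0 lies apart, so any gene that is low at day 0 correlates, and no p is given. H6pd encodes the enzyme that supplies NADPH to 11-beta-hydroxysteroid dehydrogenase 1. Among the other targets the correlation with Tsc22d3 was 0.792 for Sult1a1, 0.683 for Klf9, 0.681 for Errfi1, 0.396 for Sgk1, 0.382 for Per1, 0.072 for Ddit4 and -0.233 for Dusp1. Without day 2 replicate 1 it was 0.961 for Fkbp5, 0.921 for Errfi1, 0.812 for Sgk1 and -0.486 for Dusp1.

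The receptor gene and its machinery were measured on the same arrays. Nr3c1 measured 9.65, 9.17 and 9.60 on day 1 of co-culture, 5.61, 8.92 and 10.29 on day 2 and 9.29 and 9.01 on day 3. Without LSK cells it measured 10.73 and 10.54 in the medium control, against 11.61, 11.20 and 10.99 at day 0. Every later array lay below day 0. The difference from day 0 was -1.79 ± 0.93 on day 1 (limma, adjusted p = 0.373) and -0.63 ± 1.04 in the medium control. With day 2 replicate 1 left out the differences of -1.79 on day 1 and -2.12 on day 3 passed (limma, adjusted p = 0.0165 and 0.0167). Nr3c2, the mineralocorticoid receptor gene, measured 2.94 to 5.39 on all arrays and did not pass in any comparison with day 0. Hsd11b1, which encodes the enzyme that regenerates active glucocorticoid, measured 2.45 in the medium control, against 2.32 to 2.45 at day 0, near the lowest value. In co-culture it measured 2.45 to 2.71 on day 1, 4.56, 3.59 and 2.45 on day 2 and 3.91 and 2.45 on day 3. The day 2 difference from day 0 did not pass (limma, adjusted p = 0.191). Hsd11b2, which encodes the inactivating enzyme, was under the filter. Of the 24 machinery genes 18 were tested, and 0 passed in the 4 comparisons with day 0 with limma. An unadjusted p under 0.05 was found for 1 in the medium control and 3 on day 1 (9.45% and 17.3% of all genes). The day 1 count is near the share of all genes. The co-chaperone gene Fkbp4 measured 10.11, 9.87 and 10.56 on day 1 of co-culture, against 7.45, 8.56 and 8.75 at day 0 (limma, adjusted p = 0.312). Between day 1 of co-culture and the medium control 1 of the 18 passed, higher, where 2.15% of all genes were called higher. It was the coactivator gene Ncoa3, at 8.16, 8.39 and 8.09 against 6.4 and 6.43 (1.80 ± 0.39, limma, adjusted p = 0.0372). In the fit to 12 arrays without day 2 replicate 1, Ncoa3 also passed against day 0 on day 1 (0.85) and day 3 (0.90), while Hsp90aa1 and St13, which encode a chaperone and a co-chaperone, were lower on day 1 than in the medium control (-0.80 and -1.52, limma, adjusted p = 0.0479 and 0.0384). The median difference of these 18 genes in the medium control was 0.04.

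Of 33 other genes known as glucocorticoid-induced in some tissue, 26 were tested. In the medium control against day 0, 2 passed, both higher, where 0.221% of all genes were called higher. Mt2 and the insulin receptor substrate gene Irs2 rose by 3.92 ± 0.31 and by at least 3.13 ± 0.38 (limma, adjusted p = 0.00216 and 0.0164). For Irs2 this is a lower bound, since 2 of the 3 day 0 arrays lay at the lowest value of the table. The Mt2 value had been seen before the list was drawn up, as had that of Irs2. On day 1 of co-culture 3 passed, all higher, where 0.828% of all genes were called higher. Mt2 rose by 4.63 ± 0.28, Mt1 by 2.47 ± 0.31 and the kinase gene Map3k6 by 2.88 ± 0.53 (limma, adjusted p = 0.000324, 0.00944 and 0.0325). When day 2 replicate 1 was left out the counts in the medium control and on day 1 were 4 and 7 higher, where 0.778% and 4.35% of all genes were. Lcn2, a lipocalin of the acute phase, was among the genes called in both comparisons (at least 3.47 in the medium control and at least 3.13 on day 1, with all 3 day 0 arrays at its lowest value). The median difference of the 26 genes was 0.62 in the medium control and 0.59 on day 1, against 0 over all genes. Some of the 26 lay lower in the medium control than at day 0, none past the threshold. Among these, Fbxo32 differed by -2.39, Angptl4 by -1.61, Hif3a by -0.97, Zfp36 by -0.895 and Cebpd by -0.88. Metallothionein genes also respond to metals. Irs2 was lower on day 1 of co-culture than in the medium control, at 4.27, 4.33 and 4.43 against 5.97 and 5.83 (-1.55 ± 0.38, limma, adjusted p = 0.0496). In the same comparison Hif3a and Nfkbia passed as higher (1.80 ± 0.34 and 1.44 ± 0.35, limma, adjusted p = 0.0251 and 0.0483). There 2.15% of all genes were called higher and 3.05% lower.

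Of 20 genes known as glucocorticoid-repressed, 12 were tested and 1 passed in any comparison with day 0 with all arrays, the adhesion gene Vcam1 on day 2. In that comparison 1.62% of all genes were called lower. Vcam1 measured 8.68, 8.32 and 8.08 on day 1 of co-culture, 4.22, 7.46 and 8.68 on day 2 and 8.36 and 8.49 on day 3. The medium arrays gave 10.89 and 10.72, against 11.19, 11.60 and 10.44 at day 0, so that all co-culture arrays lay below both other groups. On day 2 it fell by 4.29 ± 0.91 on the log2 scale with all arrays (limma, adjusted p = 0.0478), and by 3.00 ± 0.42 without day 2 replicate 1, its lowest array (limma, adjusted p = 0.015). In that fit to 12 arrays it also fell by 2.71 on day 1 and by 2.65 on day 3, and was lower on day 1 than in the medium control (-2.45), while the medium difference from day 0 of -0.26 did not pass (limma, adjusted p = 0.00572, 0.0114, 0.00947 and 0.873). In the medium control 0 passed with limma, and 2 had an unadjusted p under 0.05 (9.45% of all genes). Neither of these was Vcam1, Ptgs2, Il6 or Ccl2. Ptgs2, which encodes cyclooxygenase 2, measured 3.50, 5.17 and 6.08 on day 1 of co-culture and 6.82 and 7.45 in the medium control, against 9.32, 8.52 and 8.79 at day 0. The cytokine gene Il6 measured 4.0, 2.63 and 3.70 on day 1 and 3.70 and 4.63 in the medium control, against 6.84, 8.27 and 4.35 at day 0, and the chemokine gene Ccl2 measured 9.05 and 9.24 in the medium control, against 10.57, 12.56 and 10.80 at day 0. Il6 and Ccl2 did not pass (limma, adjusted p = 0.596 and 0.822 in the medium control), nor did Ptgs2 (limma, adjusted p = 0.139 on day 1). The median difference of the 12 genes was -0.15 in the medium control and -0.49 on day 1. In the medium control Il1b, Tnf and Icam1 differed by 0 and Csf2 by -0.05. Cxcl1 and Ccl7 differed by -1.78 and -1.77, while Mmp3 and Lif differed by 0.08 and 0.28. A difference of 0 can arise where both groups lie at the lowest value, so it does not show an unchanged level. At that value lay 44.9% to 45.8% of probe sets at day 0 and 45.4% to 45.5% in the medium control.

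Of 21 circadian clock genes other than Per1, 17 were tested and 0 passed against day 0 with limma. Those with an unadjusted p under 0.05 numbered 4 in the medium control and 3 on day 1 (9.45% and 17.3% of all genes). The day 1 count is near the share of all genes. The clock output gene Dbp measured 9.13, 8.82 and 8.89 on day 1 of co-culture and 6.64 and 6.71 in the medium control, against 8.80, 8.66 and 9.17 at day 0. Rora measured 3.98 and 4.99 in the medium control, against 5.84, 6.50 and 6.85 at day 0. Per2, a paralog of Per1, measured 6.32 and 6.05 in the medium control, against 4.53, 4.13 and 4.49 at day 0. That difference of 1.80 ± 0.43 did not pass (limma, adjusted p = 0.17). On day 1 of co-culture Per2 was lower than in the medium control (-3.27 ± 0.43, limma, adjusted p = 0.00924). Per1 had a difference of 1.55 in the same comparison that did not pass. Without day 2 replicate 1, Per2, Nr1d2 and Rora were called lower on day 1 than at day 0 (6.22% of all genes). In that comparison 0 clock genes were called higher (4.35%).

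Of 29 immediate early genes, 28 were tested and 0 passed against day 0 with limma. There were 5 at an unadjusted p under 0.05 in the medium control and 3 on day 1 (9.45% and 17.3% of all genes). The median difference of the 28 genes was -0.65 in the medium control and -0.15 on day 1, in the direction of Dusp1, which is also an immediate early gene. Fosb measured 5.19 and 4.96 in the medium control, against 7.69, 9.02 and 5.06 at day 0. Fos measured 12.69 and 12.29 in the medium control, against 14.10, 14.03 and 11.75 at day 0. As in Dusp1, day 0 replicates 1 and 2 were high and replicate 3 was lower, so that the groups overlapped in both genes. Atf3 measured 5.43 and 5.32 in the medium control, against 7.34, 7.78 and 8.20 at day 0, and passed without day 2 replicate 1 (-2.40, limma, adjusted p = 0.0326).

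Of 20 paralogs of the targets, 16 were tested, and Klf13, a relative of Klf9, was the single gene to pass against day 0 with all arrays. It was called higher in the medium control and on days 1, 2 and 3. In these comparisons 0.221%, 0.828%, 0.639% and 0.352% of all genes were called higher. Klf13 measured 8.06, 7.83 and 7.91 on day 1 of co-culture, 8.97, 7.79 and 8.12 on day 2 and 7.81 and 7.72 on day 3. Medium control values were 7.91 and 7.96, against 5.86, 5.24 and 4.95 at day 0. All 10 later arrays lay together above day 0, and Klf13 had been seen to be high before the list was drawn up. It rose by 2.59 ± 0.36 in the medium control and by 2.58 ± 0.32 on day 1 (limma, adjusted p = 0.025 and 0.00944). The median difference of the 16 paralogs was 0.15 in the medium control, against 1.94 for the 10 targets. The plot of gene lists shows the 10 targets beside the 6 lists.

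**Figure D4:**
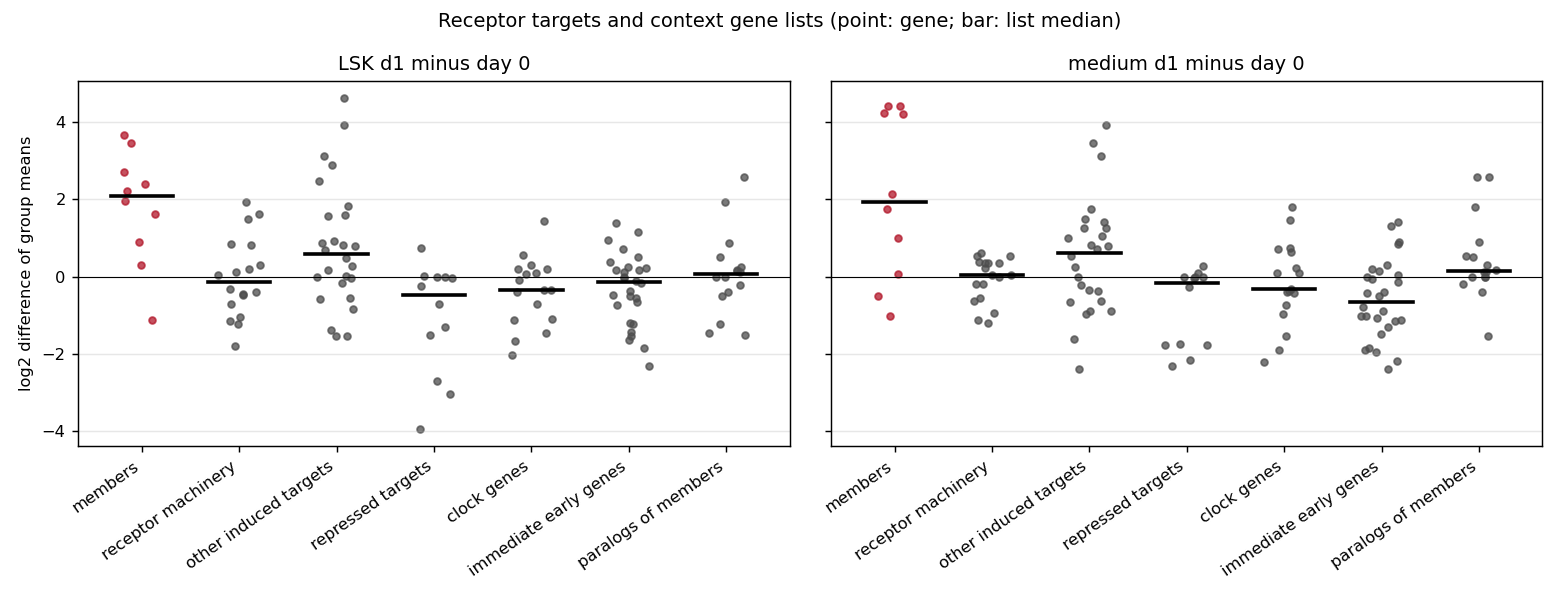
Log2 difference from day 0 (y axis) of each tested gene in the 10 targets (members) and 6 context lists (x axis), for day 1 of co-culture (left) and the medium control (right). Points are genes and bars list medians, which for the targets were 2.09 on day 1 and 1.94 in the medium control, against 0.59 and 0.62 for the other induced targets.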

How the data were processed

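Per the file, the authors deposited log2 values, 1 per probe set and array, from 2.28 to 15.7. RMA and GCRMA are named, per the submitters' processing notes, without saying which made these values. The values were used as deposited. Of 45101 probe sets, 34945 other than controls had 1 gene symbol in the platform annotation. A probe set was kept if 2 or more arrays exceeded 2.38, the median of the whole table, and each gene was read from its probe set with the highest mean, which gave 12205 genes. Arrays were grouped by title. All 13 were fitted together, each group with its own mean, using limma 3.58.1 (R 4.3.3) and its eBayes step, with Benjamini-Hochberg adjustment over all genes and a threshold of 0.05, for 6 comparisons. The fit was tested on simulated data. Two-sided p-values and 95% intervals come from that fit. The 10 targets and all lists were chosen with earlier results of these data known, by name and not by the test. From the lists, the genes with the largest differences past the threshold were named, or 2 as values where none passed, with Nr3c1, Nr3c2 and Hsd11b1 always. Vcam1, Ncoa3, Hsp90aa1, St13, Per2, Lcn2, Kdr, Hif3a, Nfkbia, Il1b, Tnf, Icam1, Csf2, Cxcl1, Ccl7, Mmp3 and Lif were named after their values were seen. So were Fbxo32, Angptl4, Zfp36 and Cebpd. The number of arrays limits the precision. Alternatives covered filters, scaling, probe set averaging, the variance model, array weights, the groups fitted, a replicate block and each array left out. Figures were drawn with Python.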

Additional observations from a re-analysis of the deposited data

How the results depend on the processing

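The limits are those of few arrays, of 1 array that stands apart, and of low probe sets such as that of Sult1a1. The numbers of members called were 1, 1, 1 and 0 against day 0 in the medium control and on days 1, 2 and 3, and 0 for day 1 against the medium control. Over the arrays left out in turn they ranged from 0 to 3, 0 to 5, 0 to 3 and 0 to 3, and stayed at 0 for day 1 against the medium control and for day 3 against day 1. The highest of these counts against day 0 came without day 2 replicate 1, where 1.36%, 10.6%, 2.48% and 7.69% of all genes were called. On day 2 the fit without replicate 3 also gave 3, where 28.7% of all genes were called. The mean of all probe sets of a gene called Tsc22d3 and Zbtb16 in the medium control and on days 1 and 2. The counts were then 2, 2 and 2 (0.401%, 2.77% and 2.39% of all genes). With array weights they were 7, 7, 4 and 1 (29.4%, 29.4%, 20.8% and 1.37% of all genes were called), and 7 for day 1 against the medium control, 3 higher and 4 lower (52.6% of all genes). With only the compared groups fitted they were 4 in the medium control, 5 on day 1 and 0 on day 2 (0.68%, 14.6% and 0% of all genes), and 3 for day 1 against the medium control (37.5%). With day 2 replicate 1 and day 3 replicate 2 both left out, chosen after seeing the data, they were 4, 5, 5 and 6 (3.04%, 13.6%, 3.46% and 5.65% of all genes), and 2 for day 1 against the medium control (21.1%), near the share of all genes. Without a filter day 2 gave 0 (0.583% of all genes). With centring day 1 gave 2 (0.901%) and day 3 gave 1 (0.27%), and with quantile scaling day 3 gave 1 (0.526%). Replicate numbers did not pair the samples: 8 of 23 same-number pairs had a correlation of deviations over 0.1, from -0.371 to 0.261. With the replicate block the counts were 0 in the medium control and 0 on day 2 (0.0655% and 0.213% of all genes). There limma gave Tsc22d3 an adjusted p of 0.0783 and 0.0639, and no other count changed. Of 1380 gene values under alternatives, 1244 kept direction and side of the threshold, 73 passed only there, 25 did not pass there and 38 changed sign. The cause of these changes was not tested.

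The 17 differences that changed sign under some alternative were 0.06 to 1.16 in size with all arrays, and 0 of them passed. In the medium control against day 0, Per1 was -0.07 with array weights and from -0.25 to 0.36 without single arrays. On day 2 against day 0, Sgk1 was 0.35 with centring, 0.37 with weights, 0.75 with both arrays left out and from -1.36 to 0.75 without single arrays, Ddit4 was 0.18 and from -1.86 to 0.18 in the same way, and Errfi1 from -0.44 to 1.89. On day 3 against day 0, Ddit4 was 0.46 with both left out and from -1.34 to 0.46. Between day 1 and the medium control, the mean of all probe sets gave Fkbp5 0.22, Klf9 -0.63 and Errfi1 -0.63, the replicate block gave Errfi1 -0.23, centring gave Sgk1 0.06 and Dusp1 0.05, and quantile scaling gave Dusp1 0.06. Single arrays gave Sgk1 -0.23 to 0.02 and Dusp1 -0.31 to 0.14. Between day 3 and day 1, leaving both out gave Tsc22d3 0.51, Per1 0.55, Zbtb16 1.27, Ddit4 0.17, Errfi1 0.14 and Dusp1 0.02. The replicate block gave Per1 0.22 and Zbtb16 0.09, and the mean of probe sets gave Zbtb16 0.04. Single arrays gave Tsc22d3 -1.12 to 0.51, Per1 -1.45 to 0.55, Zbtb16 -1.64 to 1.27, Ddit4 -1.63 to 0.17, Errfi1 -1.90 to 0.14, Dusp1 -0.55 to 0.02 and Sult1a1 -1.97 to 3.54.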
